A study of Mus musculus with 16 samples.

Results

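The genes described here encode SR proteins, hnRNPs, Snrp proteins of the snRNPs and the SF3a and SF3b subunits, the proteins that choose splice sites and build the spliceosome. They were taken by symbol, as every gene of the RNA-seq table whose symbol begins with Srsf, Hnrnp, Snrp, Sf3a or Sf3b, and *Hnrnpa2b1* and *Hnrnpc* were dropped by the rule. This gave 49 of the 15386 genes in the table: 11 SR genes, 18 hnRNP genes, 11 Snrp genes and 9 SF3 genes. In the m6A table, 48 of the 49 genes were found among 13490, the missing gene being *Srsf12*.

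Pre-mRNA splicing is carried out by the spliceosome, which is assembled on each intron from small nuclear ribonucleoproteins (snRNPs), each a small nuclear RNA held in a ring of Sm proteins together with proteins particular to that snRNP. SR proteins bind exonic enhancers and help the spliceosome to define an exon, whereas many hnRNPs bind the nascent transcript and repress or redirect nearby splice sites. The SF3a and SF3b complexes are parts of the U2 snRNP and hold it at the branch point. Many SR and hnRNP genes control their own mRNA by splicing in an exon that brings a premature stop codon. m6A, the methyl mark that the METTL3 complex places on adenosines of mRNA, lies mostly in a short motif around GGAC, and several hnRNPs bind transcripts near it.

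The samples were erythroid progenitors of the colony-forming unit–erythroid stage (CFU-E), sorted as Kit+CD71+ cells without lineage markers from the bone marrow of C57BL/6 mice of both sexes aged 10 to 16 weeks. RNA-seq was made from 3 libraries of control CFU-E and 3 libraries labelled *Mettl3*-deficient CFU-E with low Kit (CFU-E Kit-lo). The latter came from *Mettl3* fl/fl *EpoR* Cre/- mice, heterozygous for a Cre driven from the *EpoR* locus. This Cre recombines in erythroid cells and also in macrophages of the erythroblastic island. The paper also reports a partial loss of *Mettl3* mRNA in hematopoietic stem and progenitor cells of these mice. SLIM-seq, a capture of m6A-bearing RNA with an antibody, was made from control CFU-E only, with 2 input and 2 immunoprecipitated (IP) libraries. Genotype and Kit gate differ together between the RNA-seq groups and cannot be told apart, the labels give the controls no genotype beyond the word control, and in bulk libraries fewer cells of a type and less RNA per cell cannot be told apart either.

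Total counts per library ran from 17429262 to 21329242 in the RNA-seq and from 19421059 to 37142742 in the m6A table. The genes of the 4 families held 1.96%, 1.89% and 1.94% of all counts in control and 1.80%, 1.84% and 1.68% in CFU-E Kit-lo. *Kit*, whose protein was used in the gate, fell from 598 ± 47.1 to 55.2 ± 12.4 CPM (SD, n = 3 per group). CPM here are counts scaled to the library total after TMM adjustment between libraries. *Mettl3* had 123 ± 7.43 CPM in control and 117 ± 9.52 CPM in CFU-E Kit-lo (SD, n = 3), and its log2 fold change was only -0.068 (SE, the standard error, 0.096, edgeR adjusted p = 0.63). The counts thus show the low Kit that the labels name, whereas for these libraries the genotype rests on the labels. In erythroid cells of such mice, the paper reports loss of *Mettl3* mRNA by qRT-PCR and of its protein by Western blot. It also reports a lower global m6A level.

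Defining markers of other cells were low. Of the macrophage markers, 9 were measured and summed to 22.8, 22.8 and 28.4 CPM in control and to 16.6, 13.3 and 16.1 CPM in CFU-E Kit-lo. The most abundant was *Cd163*, *Adgre1* was at 0 in all Kit-lo libraries, and *Cd163* and *C1qa* fell, 2 of 7 tested. Granulocyte markers, of which 8 were measured, summed to 37.8, 29.2 and 25.5 CPM in control and to 16.4, 16.02 and 24.0 CPM in CFU-E Kit-lo; of 4 tested, *Mpo*, the most abundant in control, fell and *Ngp* rose, and *Prtn3* had the highest mean in CFU-E Kit-lo. Of 5 megakaryocyte markers, led by *Vwf* in every library but CFU-E Kit-lo replicate 2, where *Itga2b* was higher, and summing to between 13.2 and 25.9 CPM, *Itga2b* and *Gp9* rose, *Pf4* had all Kit-lo libraries below control without passing (adjusted p = 0.074) and *Treml1* was at 0 in all Kit-lo libraries. The 5 B cell markers measured, of which *Ebf1* reached the highest level of 2.18 CPM in CFU-E Kit-lo replicate 2, summed to at most 3.93 CPM and were too low to test.

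Late erythroid genes moved furthest with the groups. Their 9 measured members summed to 1245, 1141 and 1260 CPM in control and to 3102, 4200 and 3465 CPM in CFU-E Kit-lo, with none at 0, and *Ermap* was the most abundant in control while *Hba-a1* was level with or just above it in CFU-E Kit-lo replicates 2 and 3. Past the thresholds used below, 6 of the 9 rose. Among 8 erythroid progenitor genes, led by *Klf1*, *Klf1* and *Epor* rose while *Myb*, *Kit* and *Gata2* fell. Their sums were 3235, 3224 and 3326 CPM in control and 3144, 3051 and 3196 CPM in CFU-E Kit-lo, with none at 0. The part of these shifts in the results for the splicing factors was not tested.

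GGACT, the form of the m6A motif that was searched here on the sense strand of 1 annotated transcript per gene, is shown for the hnRNP H group because its 3 genes carry it at a matching place in the coding sequence, and their log2 values of IP over input ran from 0.048 to 1.55. The windows of 25 bases hold the GGACT nearest the stop codon, in capitals, read 5′ to 3′ on the coding strand of GRCm38, the build that mm10 names. They lie in exon 6 of 15 of *Hnrnph1* (chr11:50381486-50381510, plus strand), exon 3 of 3 of *Hnrnph2* (chrX:134605332-134605356, plus strand) and exon 3 of 10 of *Hnrnph3* (chr10:63018847-63018871, minus strand), 912, 912 and 888 bases before the stop codon.
Hnrnph1: cattgccggtGGACTtccaggggag
Hnrnph2: cactgccagtGGACTttcaggggcg
Hnrnph3: cattgacgatGGACTaccaggggag
Of the 25 bases, 21 are the same in *Hnrnph1* and *Hnrnph2*, 22 in *Hnrnph1* and *Hnrnph3* and 18 in *Hnrnph2* and *Hnrnph3*. The coding sequences of *Hnrnph1* and *Hnrnph2* are both 1347 bases long and are the same at 85.9% of positions.

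The next windows come from genes that were much lower in IP than in input and still hold the motif in their coding sequence. They lie in exon 2 of 4 of *Srsf9* (chr5:115330562-115330586, plus strand), exon 13 of 14 of *Hnrnpl* (chr7:28821413-28821437, plus strand) and exon 6 of 13 of *Hnrnpll* (chr17:80048625-80048649, minus strand), 400, 120 and 855 bases before the stop codon.
Srsf9: gagttccccaGGACTtacggaggtc
Hnrnpl: tgctggagtgGGACTcgaagagcga
Hnrnpll: atgacagttgGGACTacactaaacc
The motif was found in the transcripts of 85.4% of the 48 genes and of 91.4% of the 11441 genes with an annotated transcript that were tested for capture, so its presence in a window is a description and not a methylated site.

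Per unit of transcript length, the levels in control CFU-E ranged widely. TPM, the share of transcripts after division by length, were computed here from the counts and the median annotated length of each gene's basic coding transcripts, and had a median of 119 over the 49 genes, and the 5 most abundant genes held 47.4% of the sum. *Hnrnpk*, which binds C-rich stretches of RNA, was first at 2730 ± 89.1 TPM (SD, n = 3). It was followed by *Srsf7*, an SR protein with a zinc knuckle, at 1569 ± 139 TPM and *Hnrnpf*, a binder of G-runs, at 1380 ± 15.4 TPM. *Snrpb*, which encodes the Sm B and B′ proteins, stood at 1111 ± 58.2 TPM and *Srsf5* at 1032 ± 13.4 TPM. *Hnrnpk* stood above the rest by far more than the spread. *Srsf7* and *Hnrnpf*, and likewise *Snrpb* and *Srsf5*, were apart by little more than the larger SD of the pair. At the other end, 6 genes were under 10 TPM and together held 0.25% of the sum: *Hnrnpll*, *Srsf9*, *Sf3a2*, *Hnrnpul2*, *Snrpf* and *Srsf12*. *Srsf12* had at most 6 counts in any library and was not tested.

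In the RNA-seq comparison, no gene of these families rose and 3 fell by a fold of at least 1.5 at an adjusted p under 0.05: *Hnrnph1*, *Srsf7* and *Hnrnpll*. Across all 11979 genes tested by edgeR, 12.1% were called higher and 9.83% lower by the same thresholds, so neither 3 of 48 tested genes (6.25%) lower nor 0 of 48 higher was above the background. At an unadjusted p under 0.05, 4 genes were higher, none of them by a fold of 1.5, and DESeq2 called none higher. With the adjusted p alone, 14 of the 48 genes (29.2%) were lower and 2 (4.17%) higher, against 16.9% lower and 17.6% higher of all genes. All 3 CFU-E Kit-lo libraries were below all 3 control libraries for 20 of the 48 (41.7%) and above them for 3 (6.25%), where the backgrounds were 24% and 23.5%. The changes were mostly small, with 93.8% of the 48 inside a fold of 1.5 in either direction, compared with 67.1% of all genes. Their median log2 fold change was -0.17, and that of all genes 0.0080; these counts and medians are descriptions of the families, with no test. Since the labels do not say whether replicates came from separate animals, each p-value measures only the spread between these libraries.

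**Figure D1:**
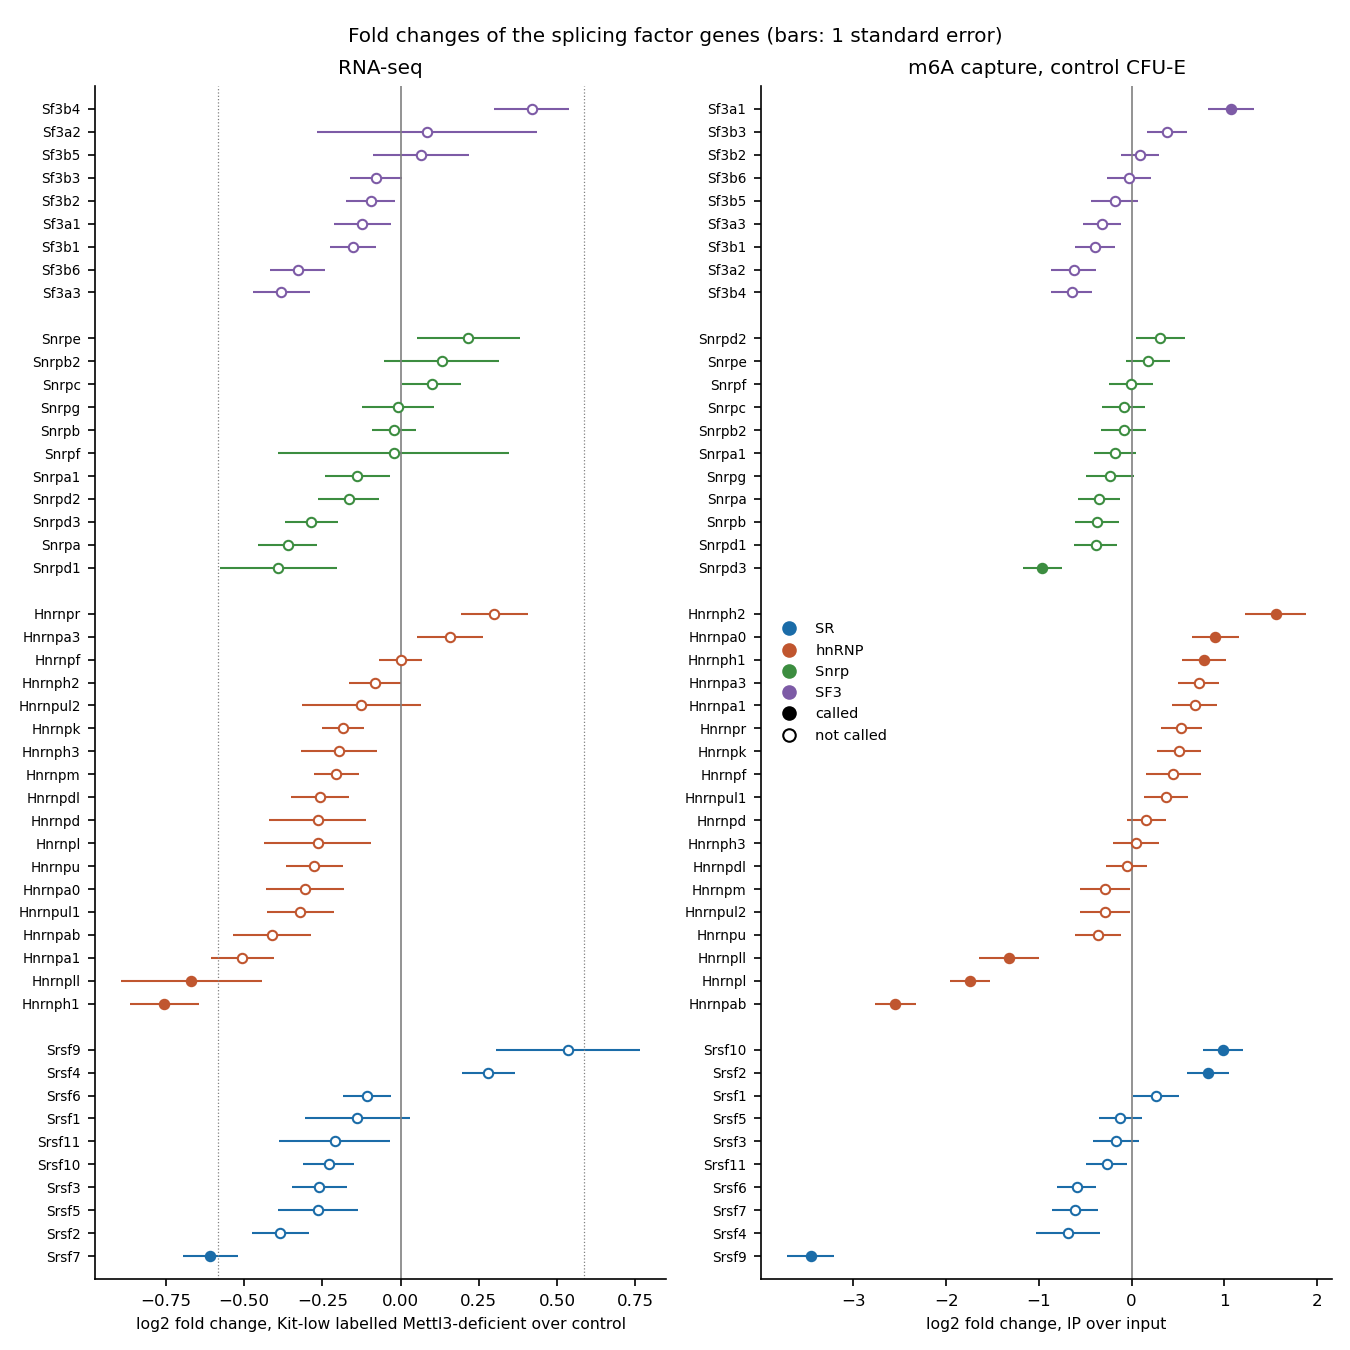
Log2 fold change of each of the 48 tested genes, by family, for CFU-E Kit-lo over control (left) and IP over input (right); points are edgeR estimates, bars 1 SE, filled points passed the thresholds, and dotted lines on the left mark a fold of 1.5. On the left 37 of 48 estimates (77.1%) lie below 0, where 49.4% of all genes tested did, and 3 are filled, all lower. On the right 6 filled points lie above 0 and 5 below.

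*Hnrnph1* had the log2 fold change farthest from 0 in the families with all libraries. It encodes hnRNP H1, a binder of G-rich sequences that acts on splicing from both exons and introns. Without control replicate 3 or CFU-E Kit-lo replicate 3, *Hnrnpll* was farther below 0 (-0.745 against -0.737, and -0.737 against -0.634). *Hnrnph1* spans chromosome 11 from 50376990 to 50386528 (plus strand, GRCm38). It was at 273, 265 and 283 CPM in control CFU-E and at 162, 187 and 137 CPM in CFU-E Kit-lo, which gave a log2 fold change of -0.76 (SE 0.11, edgeR adjusted p = 0.00058). The groups were well apart, and the Kit-lo libraries were spread more widely than the control libraries. Its close relative *Hnrnph2* was at 134, 130 and 127 CPM against 123, 129 and 117 CPM, and *Hnrnph3* at 74.5, 79.4 and 72.0 CPM against 69.5, 72.7 and 54.8 CPM. Neither relative passed the test, with log2 fold changes of -0.082 (adjusted p = 0.49) and -0.20 (adjusted p = 0.25), and the groups overlapped in both; the differences between the 3 genes were not tested.

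*Srsf7* lies on chromosome 17 from 80200080 to 80207307 on the minus strand. It had 1453, 1268 and 1552 CPM in control CFU-E and 878, 975 and 949 CPM in CFU-E Kit-lo, so the lowest control library was above the highest Kit-lo library. The log2 fold change was -0.61 (SE 0.088, edgeR adjusted p = 0.00055). This is only just past the fold threshold, and without control replicate 3 or without CFU-E Kit-lo replicate 1 it came to -0.55 and -0.57, short of that threshold though still at adjusted p-values of 0.0042 and 0.0013. With library sizes alone it was -0.55 (adjusted p = 0.00042), again short of the fold.

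*Hnrnpll*, known from T cells for its part in the splicing of *Ptprc*, lies on chromosome 17 from 80029487 to 80062334 on the minus strand and was a low gene here. It had 13.5, 18.5 and 13.7 CPM in control and 7.22, 10.9 and 10.6 CPM in CFU-E Kit-lo, with a log2 fold change of -0.67 (SE 0.22, edgeR adjusted p = 0.042). The groups did not overlap, but 5 of the 6 libraries each took the adjusted p above 0.05 when left out, to between 0.057 and 0.17, the exception being CFU-E Kit-lo replicate 3, and library sizes alone also ended the call (-0.62, adjusted p = 0.062). When the test was made against a fold of 1.5 in place of 0, none of the 3 genes passed, with an adjusted p of 0.16 for *Hnrnph1*, 0.65 for *Hnrnpll* and 0.70 for *Srsf7*.

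**Figure D2:**
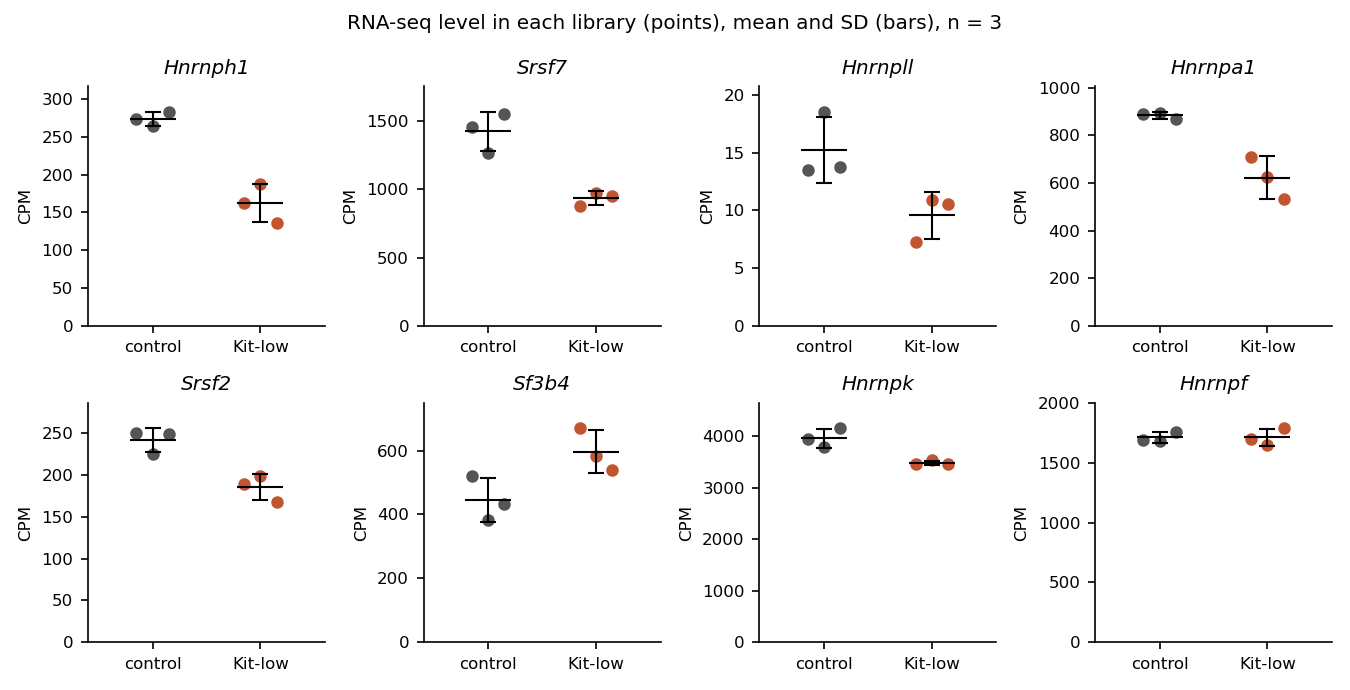
CPM of 8 genes in each RNA-seq library of control CFU-E and CFU-E Kit-lo (points), with mean and SD (bars, n = 3); *Hnrnpa1* was added to the plot after its values were seen. *Hnrnph1*, *Srsf7* and *Hnrnpll* show groups that do not overlap with all Kit-lo libraries lower, *Sf3b4* has all Kit-lo libraries higher, and *Hnrnpf* has overlapping groups around 1709 and 1710 CPM.

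Among the 10 SR genes tested, which bind exons and recruit the splicing machinery, 8 had a log2 fold change below 0, with a median of -0.22. The share below 0 was 49.4% over all genes, and 16.9% of all genes were lower by the adjusted p alone. *Srsf2* (adjusted p = 0.0082) and *Srsf3* (adjusted p = 0.044), the latter the smallest SR protein, were lower by the adjusted p alone, at log2 fold changes of -0.38 and -0.26. *Srsf4* was higher in that way, at 303, 274 and 328 CPM against 366, 377 and 356 CPM, a log2 fold change of 0.28 (adjusted p = 0.026). Of the transcript of *Srsf4*, 66.5% consists of words of 31 bases that also occur in other annotated genes, so its counts are uncertain. *Srsf5* had 828, 834 and 867 CPM in control and 686, 854 and 565 CPM in CFU-E Kit-lo, where replicate 2 lay within the control range, and it did not pass the test (log2 fold change -0.26, SE 0.13, adjusted p = 0.14). *Srsf10*, an SR protein that represses splicing when it loses its phosphates, was at 744, 659 and 765 CPM and at 616, 649 and 584 CPM, at an adjusted p of 0.053. *Srsf9* had the largest estimate above 0 in any of the families, 0.54 (SE 0.23), at 4.88, 6.23 and 5.21 CPM against 8.21, 7.43 and 8.03 CPM; its groups did not overlap, but it missed the threshold (adjusted p = 0.10).

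In the hnRNP genes, 15 of 18 estimates were below 0, with a median of -0.26, and 7 were lower by the adjusted p alone. Of all genes tested, 49.4% were below 0 and 16.9% were lower by the adjusted p alone. *Hnrnpa1*, a repressor of exon inclusion, came closest to the fold threshold after the called genes: it had 891, 894 and 867 CPM in control and 710, 626 and 532 CPM in CFU-E Kit-lo, for a log2 fold change of -0.51 (SE 0.10, adjusted p = 0.0034). In its transcript, 49.3% of the words are shared with other annotated genes, above all the processed pseudogene *Gm10052*. *Hnrnpab* (-0.41), *Hnrnpul1* (-0.32), *Hnrnpu* (-0.28), which is also a scaffold protein of chromatin, and *Hnrnpm* (-0.21) were the others, at adjusted p-values of 0.027 to 0.048. *Hnrnpk* was at 3947, 3793 and 4160 CPM against 3472, 3537 and 3467 CPM. Its groups did not overlap, yet the difference was small, at a log2 fold change of -0.18 (SE 0.067, adjusted p = 0.059). *Hnrnpf* had 1692, 1678 and 1758 CPM against 1700, 1643 and 1787 CPM. The 95% interval of its log2 fold change ran from -0.15 to 0.15, a narrow range, but 70.6% of its words are shared with other genes and its counts are uncertain. *Hnrnpr* was highest, at 0.30 (adjusted p = 0.055).

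The Snrp genes stayed closest to 0, with a median log2 fold change of -0.022 over 11 genes, none of which passed both thresholds; at an unadjusted p under 0.05, 2 were lower and none higher by edgeR, and DESeq2 called none. Of the Sm ring itself, 7 of the 8 listed genes were measured and 0 were called (1 lower and 0 higher at an unadjusted p under 0.05, 0 by DESeq2), and *Snrpd3*, one of its core members, was lower by the adjusted p alone (log2 fold change -0.29, adjusted p = 0.026). *Snrpa*, a protein of the U1 snRNP, was lower in the same way (-0.36, adjusted p = 0.013), with 50.8% of its transcript's words shared with other genes. *Snrpb* was at 735, 699 and 675 CPM in control and at 712, 669 and 696 CPM in CFU-E Kit-lo, with overlapping groups and a 95% interval of the log2 fold change from -0.18 to 0.13. *Snrpc*, another protein of the U1 snRNP, was at 174, 157 and 142 CPM and at 174, 170 and 163 CPM, with an interval of -0.11 to 0.31.

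Of the 9 SF3 genes, 6 had estimates below 0, where 49.4% of all genes did, with a median of -0.095, and none was called. At an unadjusted p under 0.05, 2 were lower and 1 higher by edgeR, and DESeq2 called none. *Sf3a3* (-0.38, adjusted p = 0.0085) and *Sf3b6* (-0.33, adjusted p = 0.015), the subunit that touches the branch point adenosine, were the lower ones. *Sf3b4*, a neighbour of the branch point in the U2 snRNP, was the higher one, at 520, 384 and 434 CPM in control and 670, 582 and 538 CPM in CFU-E Kit-lo. The estimate was 0.42 in log2 units (SE 0.12, adjusted p = 0.021), and 57.9% of its words are shared with other genes. Without control replicate 2, control replicate 3 or CFU-E Kit-lo replicate 1, its edgeR adjusted p was 0.085, 0.093 and 0.059. With any other library left out it stayed under 0.05. *Sf3b3* was at 1139, 1028 and 1167 CPM against 1143, 991 and 1023 CPM, with overlapping groups. *Sf3b1*, the subunit that clamps the branch helix, was at 889, 829 and 802 CPM against 756, 792 and 720 CPM, a log2 fold change of -0.15 (adjusted p = 0.15).

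Summed over a family, hnRNP genes made up 9241 ± 231 CPM in control and 8171 ± 175 CPM in CFU-E Kit-lo (SD, n = 3), and SR genes 5127 ± 346 and 4233 ± 257 CPM. In both families all Kit-lo libraries were below all control libraries. The sums for SF3 genes, 3581 ± 202 and 3444 ± 189 CPM, overlapped between groups. The Snrp genes came to 1700 ± 88.9 and 1587 ± 27.7 CPM and did not overlap, with the highest Kit-lo library at 1607 CPM and the lowest control library at 1632 CPM. These sums follow the most abundant genes of each family, such as *Hnrnpk* in the hnRNP sum and *Srsf7* in the SR sum.

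In the m6A capture from control CFU-E, 6 of the 48 genes (12.5%) were enriched in IP over input and 5 (10.4%) were lower in IP at an adjusted p under 0.05. Among all 11447 genes tested, 7.9% were enriched and 7.86% lower, so the members' counts were near the background. Without input replicate 1, 1 member was enriched and 3 were lower. The median log2 fold change of IP over input was -0.11 for the 48 genes and 0.056 for all genes. Enriched genes came from the hnRNP family (3 of 18), the SR family (2 of 10) and the SF3 family (1 of 9). None of the 11 Snrp genes was enriched, none at an unadjusted p under 0.05 by edgeR either, and none by DESeq2. By scaling, the split of all called genes moved from 904 enriched and 900 lower (50.1% enriched) to 934 and 608 with library sizes alone (60.6%) and to 1451 and 754 with upper-quartile scaling (65.8%), as the median of all genes moved to 0.21 and 0.18; the families then had 9 and 7 genes enriched and 4 and 5 lower. DESeq2 called 8 enriched and 7 lower, and with DESeq2's size factors in edgeR, 4 were enriched and 5 lower.

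*Hnrnph2*, the single-coding-exon relative of *Hnrnph1* on the X chromosome (134601179 to 134607060, plus strand), was the most enriched. It was at 32.8 and 26.2 CPM in input and at 116 and 56.8 CPM in IP, a log2 fold change of 1.55 (SE 0.33, edgeR adjusted p = 0.011). Both IP libraries were above both inputs, but IP replicate 1 was far above IP replicate 2, and without IP replicate 1 the value was 0.93 (adjusted p = 0.063). *Hnrnph1* itself was at 64.9 and 51.5 CPM in input and 110 and 89.6 CPM in IP, a log2 fold change of 0.78 (SE 0.23, adjusted p = 0.047). *Hnrnph3*, whose window above matches that of *Hnrnph1* at more positions than the window of *Hnrnph2* does, was at 41.8 and 61.3 CPM in input and 54.2 and 52.3 CPM in IP, a log2 fold change of 0.048 (adjusted p = 0.92). The differences between these genes were not tested.

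*Sf3a1*, the scaffold subunit of SF3a, on chromosome 11 (4160350 to 4182541, plus strand), was at 16.8 and 15.01 CPM in input and 36.4 and 30.4 CPM in IP (log2 fold change 1.07, SE 0.25, adjusted p = 0.018). *Srsf10*, on chromosome 4 (135855747 to 135869908, plus strand), was at 172 and 193 CPM in input and 396 and 327 CPM in IP (0.99, SE 0.22, adjusted p = 0.014). *Hnrnpa0*, an hnRNP encoded by a single exon on chromosome 13 (58125879 to 58128556, minus strand), was at 56.6 and 87.5 CPM in input and 141 and 128 CPM in IP (0.90, SE 0.25, adjusted p = 0.037). For each of these genes, both IP libraries were above both inputs. *Srsf2*, on chromosome 11 (116849901 to 116853094, minus strand), was at 782 and 741 CPM in input and at 1261 and 1438 CPM in IP (0.83, SE 0.23, adjusted p = 0.034), which made it the most abundant enriched gene of the families; 36.9% of its words are shared with other genes, above all *Mettl23*, which spans it on the other strand. Enrichment of single genes was fragile with 2 libraries a group. Left out one at a time, input replicate 1 left only *Hnrnph2* past the threshold of the 6 (1 enriched gene), input replicate 2 left *Hnrnph2* and *Hnrnpa0*, and IP replicate 1 left *Srsf10* and *Srsf2*; IP replicate 2 left all 6. With DESeq2's size factors in edgeR, *Srsf2* (adjusted p = 0.056) and *Hnrnph1* (0.052) were not called.

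**Figure D3:**
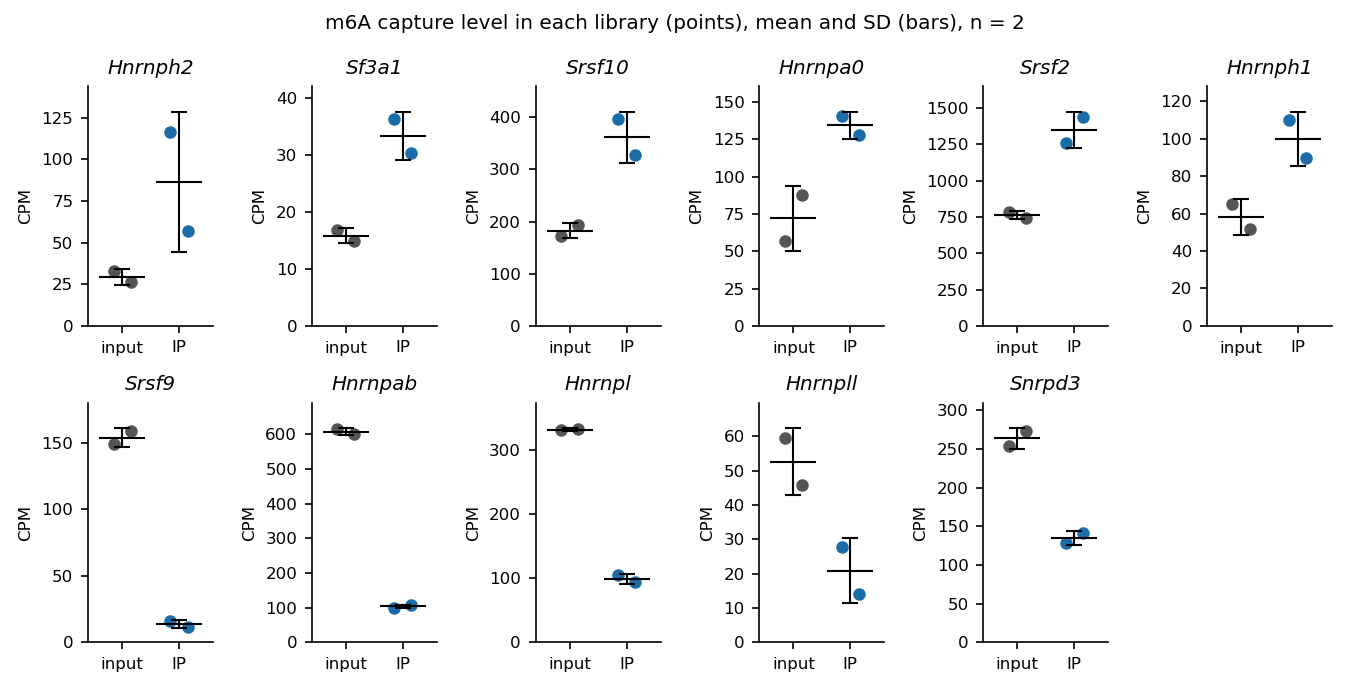
CPM in each input and IP library (points) of the 6 genes enriched in IP (top) and the 5 genes lower in IP (bottom), with mean and SD (bars, n = 2). The IP and input libraries do not overlap in any of the 11 genes. As a fold, the drop is largest for *Srsf9*, from 154 to 13.9 CPM on average.

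Of the genes lower in IP, *Srsf9*, *Hnrnpab* and *Hnrnpl* had larger estimates than any enriched gene. *Srsf9*, an SR protein close to *Srsf1*, on chromosome 5 (115327177 to 115333080, plus strand), was at 149 and 159 CPM in input and at 15.9 and 12.0 CPM in IP, a log2 fold change of -3.46 (SE 0.25, edgeR adjusted p = 1.2e-05). *Hnrnpab*, on chromosome 11 (51600100 to 51606847, minus strand), was at 614 and 600.0 CPM in input and at 99.8 and 107 CPM in IP (-2.55, SE 0.22, adjusted p = 4.0e-05), with no GGACT in its transcript. *Hnrnpl*, a binder of CA repeats, on chromosome 7 (28808541 to 28822266, plus strand), was at 330 and 333 CPM in input and at 105 and 93.4 CPM in IP (-1.74, SE 0.21, adjusted p = 0.00042). These 3 genes stayed lower past the threshold under every alternative that was run. *Hnrnpll*, the close relative of *Hnrnpl*, was at 59.5 and 45.7 CPM in input and at 27.6 and 14.2 CPM in IP (-1.32, SE 0.32, adjusted p = 0.021), a call that was lost without input replicate 1 (adjusted p = 0.12) or without IP replicate 2 (0.055) and with library sizes alone (0.072). *Snrpd3*, which falls outside the 4 genes with the smallest values and is named because it completes the 5, was at 254 and 273 CPM in input and at 129 and 141 CPM in IP (-0.96, adjusted p = 0.013).

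The 2 genes of each family with the highest TPM were not called in the capture by edgeR with all libraries, TMM scaling and no replicate block. Some of them were called under other settings. *Hnrnpk* was at 1264 and 1161 CPM in input and at 1892 and 1557 CPM in IP, a log2 fold change of 0.51 (SE 0.23, adjusted p = 0.17), and *Hnrnpf* at 606 and 362 CPM in input and 790 and 532 CPM in IP (0.45, adjusted p = 0.32). *Srsf7* was lower in IP on average, at 1466 and 1776 CPM in input and 920 and 1199 CPM in IP, without passing the test (-0.61, SE 0.25, adjusted p = 0.12). In *Srsf7* the groups did not overlap, whereas in *Hnrnpf* they did. *Snrpb* (-0.38, adjusted p = 0.30), *Snrpc* (-0.086, adjusted p = 0.84), *Srsf5* (-0.12, adjusted p = 0.76), *Sf3b3* (0.38, adjusted p = 0.25) and *Sf3b4* (-0.65, adjusted p = 0.069) also did not pass. *Sf3b4* was called lower by DESeq2 (-0.69, adjusted p = 0.022) and by edgeR without IP replicate 2 (-0.71, adjusted p = 0.046). Without that library edgeR also called *Srsf7* lower (adjusted p = 0.027) and *Hnrnpk* enriched (0.049), and *Hnrnpk* was enriched with library sizes alone (0.045). With a block for replicate number, edgeR called *Hnrnpk* (adjusted p = 0.031) and *Hnrnpf* (0.033) enriched and *Srsf7* (0.0096) and *Sf3b4* (0.0060) lower. Whether same-numbered input and IP libraries share an RNA is not given. The 95% interval of the log2 fold change ran from -0.64 to 0.39 for *Srsf5* and from -0.60 to 0.43 for *Snrpc*.

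Set side by side, the comparisons shared 1 gene that was lower in CFU-E Kit-lo and enriched in IP, *Hnrnph1*. Of the 6 enriched genes, 5 were not called in the RNA-seq, with a median log2 fold change of -0.27 for the 6; of the 5 genes lower in IP, *Hnrnpll* was also lower in CFU-E Kit-lo and 4 were not called, with a median of -0.29. The 37 genes called in neither direction in the capture had a median of -0.14 and 1 lower gene, *Srsf7*. Over all genes tested in both, 10.2% of 864 enriched genes, 10.5% of 9076 uncalled genes and 9.96% of 833 genes lower in IP were lower in the RNA-seq. The call of *Hnrnph1* in the capture was lost in 5 of 12 alternatives, among them DESeq2's size factors in edgeR (adjusted p = 0.052) and no filter on low counts (0.052).

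**Figure D4:**
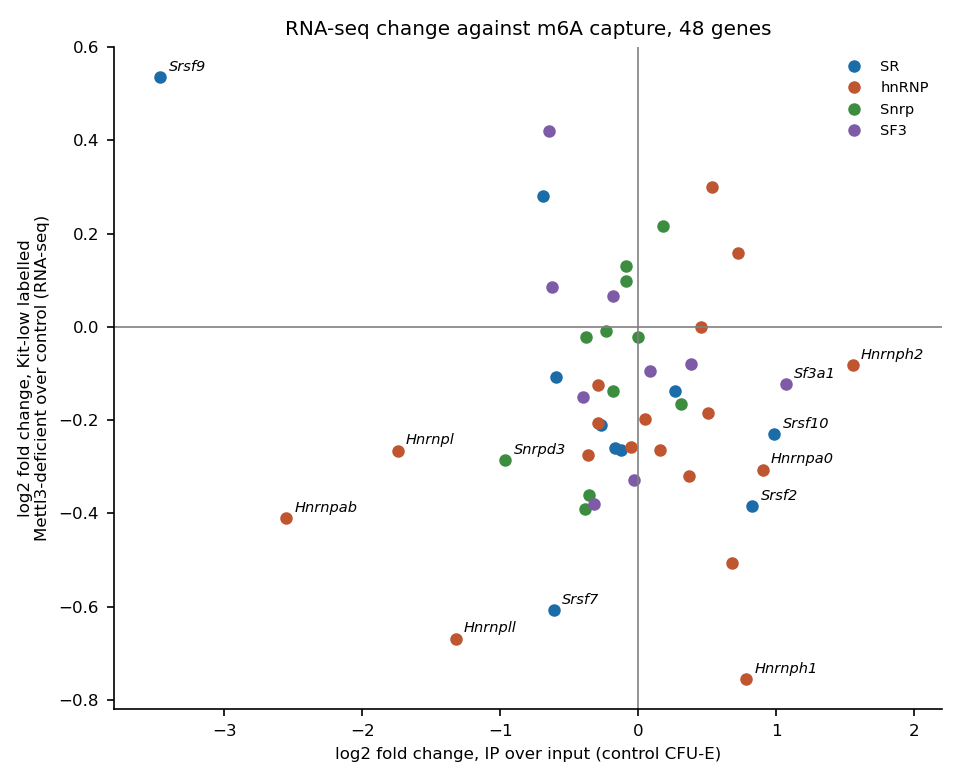
Log2 fold change in RNA-seq (CFU-E Kit-lo over control) against log2 fold change of IP over input in control CFU-E for 48 genes, 1 point each, coloured by family and named where called in either comparison. *Hnrnph1* is the gene called lower on the vertical axis and enriched on the horizontal one, at -0.76 and 0.78, and *Srsf9* lies farthest left at -3.46.

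Structure and motif content of the transcripts varied within each class of called genes. The 6 enriched genes had a median longest exon of 2593 bases and 1.59 exons per kb, compared with 1054 bases and 3.44 exons per kb in the 5 genes lower in IP and 1067 bases and 4.04 exons per kb in the 37 not called. Over all genes, the enriched, lower and uncalled classes had median longest exons of 2038, 1156 and 1347 bases. Their exons per kb lay close together, at 3.16, 3.08 and 3.50. Spearman's rho of exons per kb with log2 IP over input was -0.094 across the 48 genes and -0.061 across 11441 genes. The longest exon took 3841 of 3988 bases in *Hnrnph2*, 2783 of 3754 in *Srsf10*, 2508 of 4920 in *Sf3a1* and all 2678 in *Hnrnpa0*. It was shorter in *Srsf2*, at 1061 bases, and in *Hnrnph1*, at 752 bases over 15 exons. *Sf3b5*, another single-exon gene, was not called (-0.18, adjusted p = 0.66). Across the 48 genes, Spearman's rho between the longest exon and log2 IP over input was 0.19, and across 11441 genes 0.24; the points share libraries and genes are not independent replicates. The count of GGACT had a rho of 0.30 with the capture across the 48 genes and 0.18 across all, but per kb of transcript the values were 0.17 and -0.066, and transcript length alone had 0.16 and 0.33. *Srsf9*, the gene lowest in IP, has 3 in 1162 bases, the densest motif content of the families at 2.58 per kb, and *Srsf10*, an enriched gene, has 1 in 3754 bases. Annotated transcripts with a premature stop (nonsense-mediated decay class) exist for 9 of the 10 SR genes tested and for 30% of all genes. They exist for 9 of 18 hnRNP, 4 of 11 Snrp and 1 of 9 SF3 genes. The counts sum over such transcripts and do not tell them apart.

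Control CFU-E gave different levels in the library types. These were made from separate samples and normalized separately, so that their values are set side by side without a test. Input exceeded RNA-seq in CPM more than 4-fold for 12 of the 48 genes (25%) and for 10.2% of all 10773 genes tested in both tables. Input was more than 4-fold below RNA-seq for 6 of the 48 (12.5%) and for 26.8% of all genes. *Srsf9* was at 5.44 ± 0.70 CPM in RNA-seq (SD, n = 3), at 154 ± 7.03 CPM in input and at 13.9 ± 2.77 CPM in IP (SD, n = 2). *Hnrnpab* was at 47.2 CPM in RNA-seq, 607 CPM in input and 104 CPM in IP, and *Hnrnpl* at 33.4, 332 and 99.0 CPM. In these 3 genes the input stood well above both RNA-seq and IP, which differed by a factor of 2.56, 2.19 and 2.96. This went with a trend over the whole table. Spearman's rho between log2 input over RNA-seq and log2 IP over input was -0.58 over all 10773 genes and -0.43 over the 48. Input enters both ratios, with opposite sign. Some Snrp genes showed another pattern, and input exceeded RNA-seq more than 4-fold for 7 of the 11. *Snrpf* was at 3.39 CPM in RNA-seq, 208 CPM in input and 208 CPM in IP. *Snrpe* was at 14.6, 300 and 339 CPM and *Snrpd1* at 17.1, 384 and 293 CPM. In these genes both IP and input were far above RNA-seq, and none was called in the capture. *Snrpd3*, in contrast, was at 294 CPM in RNA-seq and 264 CPM in input. In *Snrpf*, 92.1% of the words are shared with other genes, above all its neighbour *Ccdc38*. In the other direction, *Sf3b3* was at 1111 CPM in RNA-seq and at 64.2 CPM in input, and all but *Hnrnpa0* and *Srsf2* of the 6 enriched genes were lower in input than in RNA-seq, by factors of 0.14 to 0.25. The RNA-seq libraries cover the whole transcript, and the input and IP libraries read from its 3′ end; the part of this in the differences was not tested.

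**Figure D5:**
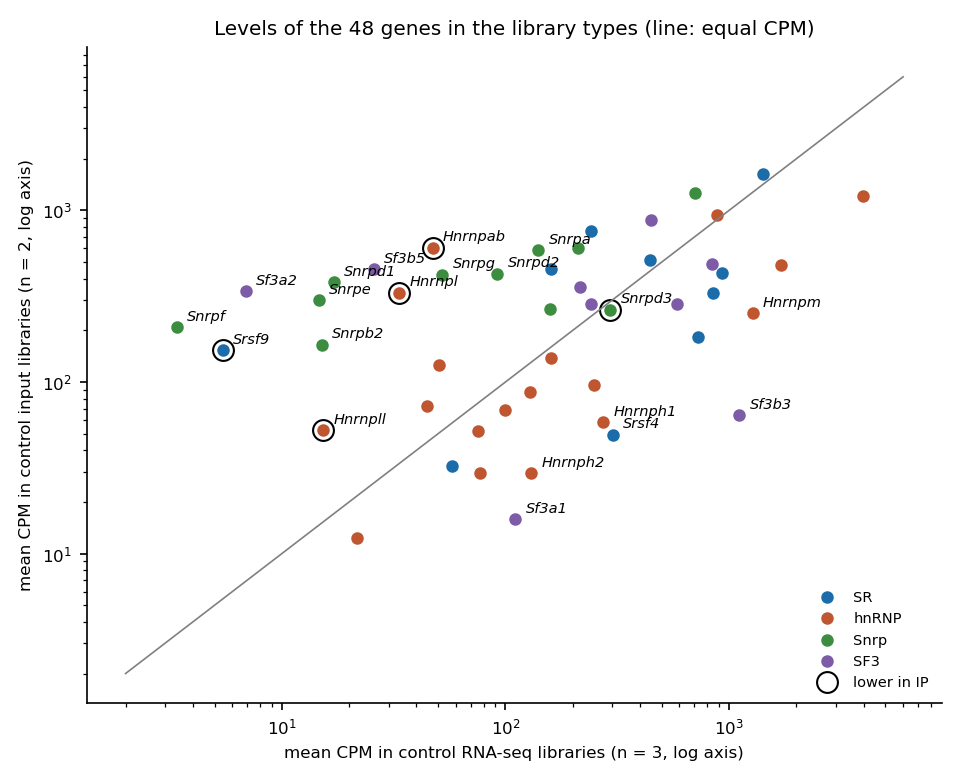
Mean CPM of 48 genes in control RNA-seq libraries (n = 3) and control input libraries (n = 2), both on log axes, coloured by family, with circles around the 5 genes lower in IP and names for those and for genes that differ more than 4-fold; the line marks equal values. *Srsf9*, *Hnrnpab*, *Hnrnpl* and *Hnrnpll* lie above the line, as do *Snrpf*, *Sf3a2*, *Snrpd1* and *Snrpe*, and *Sf3b3* lies far below it.

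Other genes of the splicing pathway, were taken from lists written from general knowledge. Of 60 other spliceosome proteins tested, 1 rose and 3 fell in CFU-E Kit-lo, where 12.1% of all genes were higher and 9.83% lower. *Dhx8*, the helicase that releases the spliced mRNA, rose from 104 ± 19.1 to 158 ± 16.4 CPM (log2 fold change 0.61, adjusted p = 0.0073). *Prpf19* (-0.84, adjusted p = 0.020) and *Plrg1* (-0.59, adjusted p = 0.0065), both of the complex named after PRP19, and *Prpf3* of the U4/U6 snRNP (-0.62, adjusted p = 0.0017) fell. Of 38 other splicing regulators tested, 5 fell and none rose, against the same background; at an unadjusted p under 0.05, 2 were higher by edgeR, and DESeq2 called none higher. *Celf2* fell furthest, from 33.5, 35.5 and 39.0 CPM to 3.64, 7.53 and 7.51 CPM (-2.53, adjusted p = 5.8e-05), followed by *Tial1* (-0.80, adjusted p = 0.0015) and *Matr3* (-0.66, adjusted p = 0.00055). None of the 10 genes for kinases and importers of SR proteins was called in edgeR or in DESeq2, with 2 higher and 2 lower at an unadjusted p under 0.05 by edgeR.

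Of the genes that load Sm proteins onto snRNAs, 4 of 15 were higher and none lower by both thresholds, where 12.1% of all genes were higher and 9.83% lower, although 3 were lower at an unadjusted p under 0.05 and DESeq2 called none lower. *Gemin4* rose from 135, 144 and 142 CPM in control to 396, 424 and 439 CPM in CFU-E Kit-lo (log2 fold change 1.58, SE 0.077, adjusted p = 9.1e-07). *Gemin6* (0.91, adjusted p = 0.00017), *Ddx20*, the helicase of the SMN complex also known as Gemin3 (0.80, adjusted p = 0.00018), and *Gemin7* (0.70, adjusted p = 0.018) also rose. Among the uncalled members, of which those named were chosen after their values were seen, *Coil*, a scaffold of Cajal bodies, had all Kit-lo libraries higher (0.45, adjusted p = 0.035) and *Wdr77*, the partner of the methylase *Prmt5*, had all of them lower (-0.40, adjusted p = 0.0052), both short of the fold threshold. *Smn1*, the scaffold of the complex, was at 28.2, 17.6 and 22.3 CPM and at 19.1, 19.4 and 15.1 CPM (-0.35, adjusted p = 0.21), *Gemin2* was at -0.19 (adjusted p = 0.26) and *Gemin5* at -0.24 (adjusted p = 0.077). The Sm genes that this complex loads had a median of -0.022.

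In the capture, 7 of the 60 other spliceosome genes were enriched and 4 lower, where 7.9% of all genes were enriched and 7.86% lower, the background for each list here. The largest enrichments were those of the helicases *Dhx16* (1.31, adjusted p = 0.016) and *Dhx15* (1.29, adjusted p = 0.010) and of *Crnkl1* (1.27, adjusted p = 0.027), and the lowest values those of *Pdcd7* (-1.34), *Sart1* (-0.96) and *Prpf19* (-0.89), at adjusted p-values of 0.014 to 0.035. Of 38 other regulators, 6 were enriched, led by *Mbnl1* at 73.0 and 89.7 CPM in input and 306 and 240 CPM in IP (1.75, adjusted p = 0.00076), *Mbnl3* (1.27) and *Tial1* (1.20), and 3 were lower: *Pcbp1* (-2.68, adjusted p = 8.9e-05), *Raly* (-2.37, adjusted p = 0.00019) and *Srrm2* (-1.61, adjusted p = 0.00084). *Tial1* was thus lower in CFU-E Kit-lo and enriched in IP, as *Hnrnph1* was, and so was *Nono* (-0.59 in RNA-seq, adjusted p = 0.00021, and 0.88 in IP over input, adjusted p = 0.046). The other enriched regulators, *Mbnl1*, *Mbnl3*, *Sfpq* and *Khsrp*, were not called in the RNA-seq (-0.030, -0.19, -0.061 and -0.23). Over all genes tested in both, 10.2% of 864 enriched genes and 10.5% of 9076 uncalled genes were lower in the RNA-seq. Among 9 kinase and import genes tested, *Dyrk1a* (1.20), *Tnpo3* (1.07), the importer of SR proteins, and *Srpk1* (1.05), which phosphorylates them, were enriched, and *Clk2* was lower (-0.99). Of the 15 Sm loading genes, *Gemin7* was lower (-0.78, adjusted p = 0.033) and none was enriched, with 4 higher at an unadjusted p under 0.05 by edgeR and 1 enriched by DESeq2.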

How the data were processed

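For both tables the authors filtered reads with fastp 0.23.4, quantified transcripts with kallisto 0.48.0 on mm10, summed them per gene by tximport, and the estimated counts they deposited are whole numbers without normalization. The submitters' processing notes also name GRCm39. Use of strand and of the molecular identifier of the SLIM-seq primer in counting is not given in the sources used here. RNA-seq was by Smart-seq2, primed with oligo-dT. Samples of proerythroblasts were not analysed here.

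Each table was fitted as a whole in R 4.3.3 with edgeR 4.0.16 (filterByExpr, TMM, glmQLFit, glmQLFTest, Benjamini-Hochberg adjustment); DESeq2 1.42.0 was an alternative. CPM are counts scaled to the TMM-adjusted library total. The standard error is the absolute log2 fold change divided by the square root of F. RNA-seq calls needed a fold of 1.5 and an adjusted p under 0.05, capture calls the adjusted p alone. The tests were run on simulated data with the same dispersion for every gene and no differences between libraries other than depth. Those data are simpler than the libraries here, so the run does not measure how firm the calls are. PCR copies are not independent molecules, and replicate error sets the precision. No libraries within a group were copies of each other (chi-square per degree of freedom 9.48 to 64.4).

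The members and lists were chosen with earlier results of these data known. Named were, per family, called genes (up to 3 a direction) and the 2 highest by TPM, the 6 highest and 4 lowest called in IP, genes lower and enriched, and up to 3 called genes a direction of each list; other members are given as examples chosen after their values were seen. Annotation and motif windows came from GENCODE M21 on GRCm38, matched by symbol for 99.9% of genes, with 1 transcript per gene for structure and motifs. Protein sequences were not used here. Figures were drawn with matplotlib.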

Additional observations from a re-analysis of the deposited data

How the results depend on the processing

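In the RNA-seq, 3 genes of the families were lower and none higher with DESeq2, DESeq2's size factors in edgeR, upper-quartile scaling, no filter, a TPM filter, library sizes without globin genes and the replicate block (3 lower, 2495 genes called in all). With library sizes alone 1 was lower and the median log2 fold change was -0.12. Without the fold threshold 14 were lower, 2 higher and 4128 genes were called in all, and against a fold of 1.5 none was lower and 1147 genes were called, as the constructions of these tests imply. Leaving out 1 library each time gave 0 higher, 1 to 3 lower (1 without control replicate 3), 2180 to 2726 calls in all and medians of -0.20 to -0.14. Same-numbered RNA-seq libraries did not deviate together (r of 0.034, -0.017 and -0.072), and not every library correlated best with its own number, so the samples share only a number.

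In the capture, library sizes alone and upper-quartile scaling moved the median to 0.051 and 0.027. DESeq2 gave 8 genes of the families enriched, 7 lower and 2212 calls in all, whereas its size factors in edgeR gave 4 enriched and 5 lower. The replicate block gave 11 enriched, 10 lower and 3538 calls in all, among them *Hnrnpk* (adjusted p = 0.031), *Hnrnpf* (0.033), *Srsf7* (0.0096) and *Sf3b4* (0.0060). With 2 pairs the correlation of same-numbered libraries was 0.21. With 2 libraries a group this value is the same for both pairs by construction, and opposite in sign for unlike numbers. It therefore cannot show whether the libraries are paired. The methods given for SLIM-seq do not say whether a same-numbered input and IP come from 1 RNA. Leaving out 1 library gave 1 to 8 enriched, 3 to 6 lower, 591 to 2326 calls and medians of -0.22 to 0.013, the lone library being assumed to vary like the others. Input replicate 1 mattered most, with 1 enriched, 3 lower and 591 calls without it.

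Values near 0 changed sign without being called. In the RNA-seq, *Snrpb* was at 0.030 with library sizes alone and -0.057 to 0.027 with 1 library left out, and *Hnrnpf* at -0.037 with upper-quartile scaling, -0.018 without a filter, -0.00019 with the block and -0.019 to 0.053 with 1 library left out. In the capture, *Snrpc* was at 0.060 and *Srsf5* at 0.041 with library sizes alone, at 0.049 and 0.0064 with upper-quartile scaling, and at -0.34 to 0.11 and -0.37 to 0.14 with 1 library left out. Of the named genes' values under the alternatives, 445 kept direction and side of the threshold, 31 lost a call, 12 gained one and the 16 just given changed sign. The 445 include values that were uncalled in both fits. They also include settings that changed only the threshold, where the direction could not change. The tally is therefore no measure of how firm the calls are, and the causes were not tested. The number of libraries, 2 or 3 a group, limits the precision.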
